A study of Danio rerio with 6 samples.

Results

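The genes of vesicle fusion and of synaptic vesicles were examined in hair cells of the adult zebrafish inner ear and in the cells that surround them. The genes were taken by symbol. The table was searched for symbols that begin with syt, snap, stx or rab3, with stxbp, vamp, sv2, syn1 to syn3, cplx, nsf, napa, napb or napg, or with rims, unc13 or dnajc5, and 140 of its 31387 gene rows matched. A symbol rule also takes in names that only begin alike. Of the 140 genes, 22 were of that kind (rab30 to rab39, the Rab3 partners, nsfl1c and the snap91 genes), and they are described apart from the others where they bear on a count.

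The samples are labelled with the line Tg(pou4f3:GAP-GFP)s273t, in which a pou4f3 promoter drives a green fluorescent protein in hair cells, and sorting on that fluorescence gave 2 groups. These were GFP+ hair cells (2 biological samples) and GFP-neg surrounding cells (1 biological sample). All samples were of 2000 cells from females of 11 to 13 months, pooled over the lagena, utricle and saccule, and the labels give this line for both groups. The raw library names of the surrounding cells carry the letters WT, which the labels do not explain, so whether these cells came from animals of the same line is uncertain, and this bears on every difference between the groups. The library names of hair cell replicate 1 and of the surrounding cells begin alike, while those of hair cell replicate 2 do not. Each sample was sequenced as 2 technical libraries, which were averaged. Since surrounding cells had a single sample, their spread between samples was not measured and was taken to equal that between the hair cell samples. Whether the hair cell samples came from separate animals is not given in the labels.

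Membrane fusion in secretion is driven by SNARE proteins. A v-SNARE on the vesicle (a VAMP, or synaptobrevin) pairs with t-SNAREs on the target membrane (a syntaxin and a SNAP-25 type protein), Sec1/Munc18 and Munc13 proteins help the complex to assemble, complexins and synaptotagmins tie fusion to calcium, and the ATPase NSF with its SNAP adaptors takes the spent complex apart. Hair cells release glutamate at ribbon synapses, which hold vesicles on a dense body, use otoferlin as a calcium sensor and are known to lack synapsins.

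Levels are given as RPKM, reads scaled to the length of the gene model and to the mapped reads of the library, so that genes of different length can be compared. Mapped reads, inferred from the RPKM values, numbered 31902175 and 102357841 in hair cell replicates 1 and 2 and 34348634 in surrounding cells. The second hair cell sample was thus 3.21 times as deep as the first. The gene pou4f3 itself, the source of the sorting promoter, was at 152 and 84.0 RPKM in hair cells and at 0.146 RPKM in surrounding cells. All 12 tested genes of a hair cell list were higher in hair cells, and their list summed to 1834 and 1661 RPKM in hair cells, against 6.69 RPKM in surrounding cells. All of these genes but gfi1ab (2.60 RPKM) were under 1 RPKM in surrounding cells. By the rule for calls given below, they could not have been called lower. Lists of epithelium (7 of 7 tested genes lower), fibroblast (7 of 8), leukocyte (6 of 8) and endothelium (5 of 6) held mostly genes lower in hair cells. The leukocyte gene lyz went the other way, with 31.4 and 22.2 RPKM in hair cells and 0.722 RPKM in surrounding cells. All 6 endothelium genes, and some genes of the other lists, were under 1 RPKM in both hair cell samples. By the same rule these could not have been called higher. Of 8 tested genes of a supporting cell list, 6 were higher and 2 lower (cx43 and fgfr3) in hair cells. That list summed to 1784 and 1979 RPKM in hair cells, against 33.9 RPKM in surrounding cells, with stm, cx30.3 and tectb the highest. Its part in the differences between the groups was not tested. In such bulk samples, fewer cells of a type and less RNA per cell cannot be told apart.

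A gene was tested if it reached 1 RPKM in at least 1 biological sample, which 78 of the 140 genes did (55.7%), against 50.3% of all gene rows. Each difference was taken as the hair cell mean of log2(RPKM + 1) less the surrounding cell value, a scale that makes changes of genes at low levels look smaller. A gene was called if its difference was 1 or more in size and its limma p-value, adjusted by Benjamini-Hochberg over all 15803 genes tested, was under 0.05. On this scale a gene under 1 RPKM in surrounding cells could not be called lower in hair cells. Likewise, one under 1 RPKM in both hair cell samples could not be called higher. Of the 78 genes, 29 were higher in hair cells (37.2%), where 17.7% of all genes tested were higher. Another 10 were lower in hair cells (12.8%), where 18% of all genes tested were lower. The remaining 39 of the 78 were not called, and over all genes tested 35.8% were called in either direction. Counts by role and by list below had no test of their own and stand beside these shares of all genes tested. The median difference of the 78 genes was 0.62, against 0.15 over all genes tested. Both medians depended on the filter, which some genes passed through only 1 of the groups. With no filter on low values they were 0.02 and -0.05. Of the 62 genes left out, 39 had a higher level in surrounding cells than in both hair cell samples. Without the 22 symbols that only begin alike, 62 genes were tested, of which 23 were higher and 8 lower in hair cells, with a median difference of 0.57. Summed over all 140 genes, the level was 1120 and 1228 RPKM in hair cells, against 554 RPKM in surrounding cells. These sums were 0.312% and 0.327% of all RPKM in hair cells and 0.187% in surrounding cells.

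**Figure D1:**
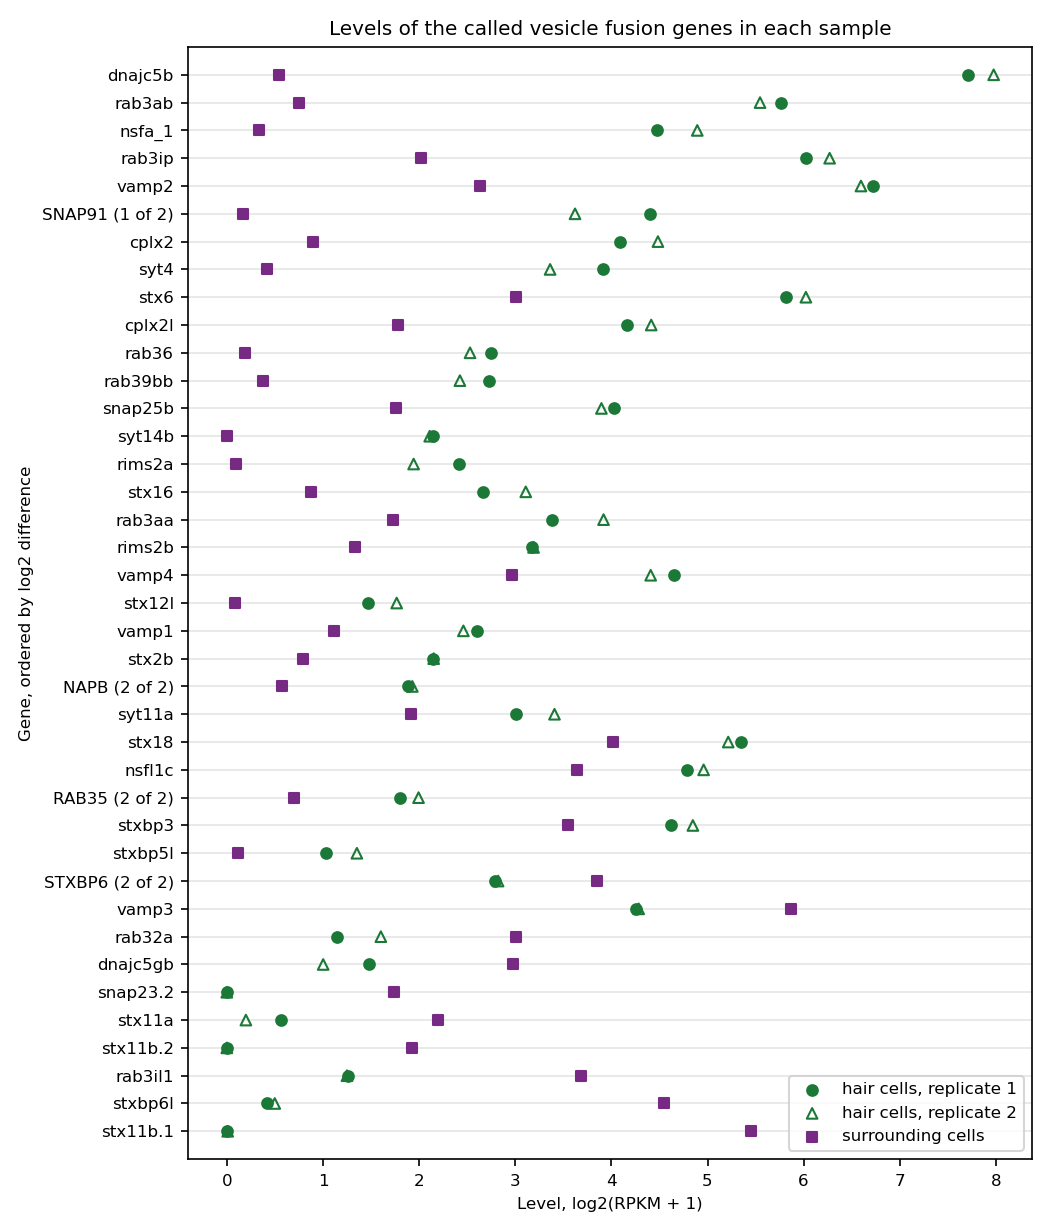
Level of the 39 called genes in each sample, as log2(RPKM + 1) on the horizontal axis, ordered by the difference between groups; green circles and triangles are hair cell replicates 1 and 2 and violet squares are the surrounding cell sample. At one end is dnajc5b, at 208 and 251 RPKM in hair cells, and at the other stx11b.1, at 42.7 RPKM in surrounding cells. A call weighs the gap against a spread taken in part from the hair cell replicates, so the choice of called genes favours close replicates. None of the 78 tested genes, called or not, was 1 log2 unit or more apart between these replicates.

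Of the 39 calls, 15 held under every alternative setting in which the gene could be tested, and no called gene changed direction. The 11 of these that were higher in hair cells were dnajc5b, rab3ab, nsfa_1, rab3ip, vamp2, cplx2, stx6, cplx2l, snap25b, rims2b and stx18. The 4 that were lower in hair cells were stx11b.1, stxbp6l, rab3il1 and vamp3. The other 24 calls were lost in at least 1 setting and are named with their groups below. Losses were most frequent with a pseudocount of 5 RPKM (19 lost) or with no filter on low values (20 lost). With that pseudocount, a gene under 5 RPKM in each sample of its higher group could not reach a difference of 1. Its loss was fixed beforehand, so whether a call held depended in part on the level of the gene.

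The v-SNARE genes went in both directions. Of 7 genes found, 6 were tested, 3 were higher and 1 was lower in hair cells, with a median difference of 1.07. vamp2, on chromosome 10, encodes synaptobrevin 2, the v-SNARE of synaptic vesicles. It had 105 and 95.7 RPKM in the hair cell samples and 5.22 RPKM in surrounding cells. The difference was 4.02 ± 0.20 (SE; limma adjusted p = 0.0072), and both hair cell samples lay far above the surrounding cells. vamp3, on chromosome 11, encodes cellubrevin, the v-SNARE of recycling endosomes in most cell types. It went the other way, with 18.1 and 18.5 RPKM in hair cells and 57.5 RPKM in surrounding cells (difference -1.60 ± 0.20, SE; limma adjusted p = 0.0137). vamp2 thus made up 42.7% and 36.1% of all VAMP RPKM in hair cells and 3.44% in surrounding cells, while vamp3 made up 7.39% and 6.96% in hair cells and 37.8% in surrounding cells.

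The other VAMP genes were less divided. vamp8, which encodes endobrevin, a v-SNARE of endosomes and of secretory granules in exocrine cells, was among the 2 most abundant of all 140 genes in each group. Its levels were 88.3 and 116 RPKM in hair cells and 60.5 RPKM in surrounding cells, and the difference of 0.74 ± 0.27 was not called (SE; limma adjusted p = 0.115). It stood at 36.0% and 43.8% of VAMP RPKM in hair cells and 39.8% in surrounding cells. vamp4, a v-SNARE of the trans-Golgi network, was higher in hair cells (24.2 and 20.2 RPKM) than in surrounding cells (6.80 RPKM), by 1.57, but lost its call with no filter on low values. vamp1, the synaptobrevin of many motor and sensory nerve endings in mammals, was at 5.06 and 4.50 RPKM in hair cells and 1.17 RPKM in surrounding cells. Its difference of 1.41 lost its call with a pseudocount of 5 RPKM and with no filter. vamp5 was at 5.09 and 10.2 RPKM in hair cells and 20.8 RPKM in surrounding cells, and its difference of -1.40 was not called (limma adjusted p = 0.0957). It was called lower in hair cells with a filter of 5 RPKM (limma adjusted p = 0.0198) and in a limma fit of read counts (voom; adjusted p = 0.00076).

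**Figure D2:**
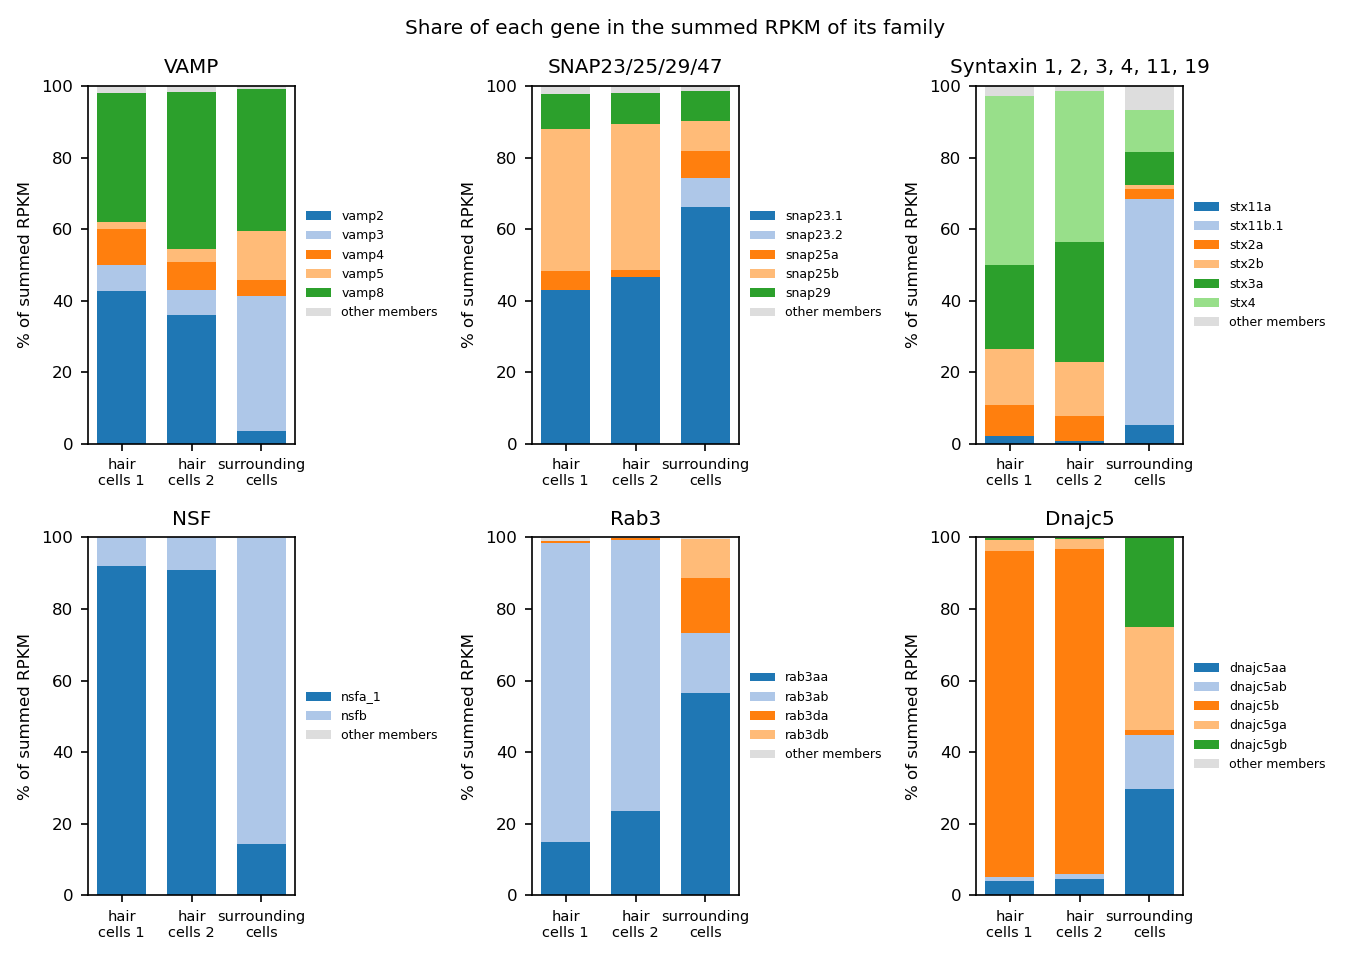
Share of each gene in the summed RPKM of its family, in percent, for hair cell replicates 1 and 2 (left bars) and surrounding cells (right bar); genes under 5% in every sample are joined as other members. vamp2 took 42.7% and 36.1% of VAMP RPKM in hair cells, against 3.44% in surrounding cells, and nsfa_1, rab3ab and dnajc5b took over 75% of their families in both hair cell samples and under 20% in surrounding cells.

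Among the SNAP-25 type t-SNAREs, 5 of 6 genes were tested. snap25b, on chromosome 17, encodes a copy of SNAP-25, the palmitoylated t-SNARE of neurons and endocrine cells. It was at 15.3 and 13.9 RPKM in hair cells and 2.39 RPKM in surrounding cells, a difference of 2.20 ± 0.24 (SE; limma adjusted p = 0.0107). Its partner snap25a had 2.00 and 0.739 RPKM in hair cells and 2.17 RPKM in surrounding cells (difference -0.47, not called). snap23.1, a copy of SNAP-23, the form found in most cell types, was about level, with 16.6 and 15.8 RPKM in hair cells and 18.9 RPKM in surrounding cells (difference -0.21 ± 0.21, SE, not called). snap25b and snap23.1 together thus made up most of this family in hair cells, at 39.8% and 40.8% for snap25b and 43.0% and 46.5% for snap23.1, while snap25b was 8.38% and snap23.1 was 66.1% in surrounding cells. The other SNAP-23 copy, snap23.2, had no read in either hair cell sample and 2.33 RPKM in surrounding cells. Taking 3 reads over both hair cell samples as the limit of detection, it was at least 76.9-fold lower in hair cells. Its call was lost with a pseudocount of 5 RPKM. How reads that match near-identical copies were assigned is not given in the sources used here, so levels of close copies such as snap23.1 and snap23.2 are uncertain.

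Of 22 syntaxin genes, 18 were tested, 5 were higher (27.8%) and 3 were lower (16.7%) in hair cells. Over all genes tested these shares were 17.7% and 18%. Most of the 18 tested syntaxins are of internal membranes, among them the uncalled stx5a, stx5al, stx7l, stx8, stx10, stx12 and stx17. The syntaxins higher in hair cells were also mostly of that kind. stx6, a syntaxin of the trans-Golgi network and endosomes, was the most abundant of them, with 55.2 and 64.0 RPKM in hair cells and 7.04 RPKM in surrounding cells (difference 2.91 ± 0.22, SE; limma adjusted p = 0.0075). stx18, a syntaxin of the endoplasmic reticulum, followed with 39.9 and 36.1 RPKM in hair cells and 15.2 RPKM in surrounding cells, a difference of 1.27. stx16, which acts with stx6 at the trans-Golgi network, was at 5.34 and 7.63 RPKM in hair cells and 0.838 RPKM in surrounding cells, and differed by 2.01. stx12l, named for the endosomal syntaxin 12, was at 1.76 and 2.40 RPKM in hair cells and 0.062 RPKM in surrounding cells, a difference of 1.53. The calls of stx16 and stx12l were lost with a pseudocount of 5 RPKM and with no filter, and that of stx12l also in the voom fit.

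Several plasma membrane syntaxins were not called. stx1a, a syntaxin of neuronal active zones, had no read in hair cells and 0.235 RPKM in surrounding cells, and was not tested. The leading plasma membrane syntaxins of hair cells were stx4, a widely used syntaxin, with 10.5 and 9.48 RPKM in hair cells and 7.94 RPKM in surrounding cells, and stx3a, a copy of the syntaxin of apical membranes and of retinal ribbon synapses, with 5.23 and 7.53 RPKM in hair cells and 6.18 RPKM in surrounding cells. Neither was called. stx2b was higher in hair cells (3.44 and 3.44 RPKM) than in surrounding cells (0.732 RPKM), by 1.36, while its partner stx2a was at 1.95 and 1.55 RPKM in hair cells and 1.88 RPKM in surrounding cells and was not called. The call of stx2b was lost in 4 settings, the voom fit among them. stx12, an endosomal syntaxin, was at 29.01 and 33.1 RPKM in hair cells and 22.7 RPKM in surrounding cells and was not called. The 6 other uncalled syntaxins (stx5a, stx5al, stx7l, stx8, stx10 and stx17) had differences between -0.96 and 0.87. stx5a was called higher in the voom fit. The difference of stx7l, -0.96 (limma adjusted p = 0.0152), was just under the size a call needed. It was called lower with a pseudocount of 0.5 RPKM, with scaling that left out the most abundant genes, in the voom fit and with the first technical library alone.

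The 3 syntaxins lower in hair cells were all copies of syntaxin 11, which in mammals serves granule release by cytotoxic lymphocytes. stx11b.1, on chromosome 20, had no read in hair cell replicate 1, 1 read in replicate 2 and 42.7 RPKM (2282 reads) in surrounding cells. The pooled level was thus 8918-fold lower in hair cells, with a 95% counting interval of 1601 to 352300-fold, and the fitted difference was -5.45 ± 0.26 (SE; limma adjusted p = 0.0072). It took 63.2% of the RPKM of plasma membrane syntaxins in surrounding cells, where stx4 took 11.8% and stx3a 9.15%. In hair cells stx4 took 47.4% and 42.1% and stx3a 23.5% and 33.5%. stx11b.2, on the same chromosome, had no read in hair cells and 2.81 RPKM in surrounding cells, which puts it at least 28.7-fold lower in hair cells. stx11a was at 0.474 and 0.148 RPKM in hair cells and 3.59 RPKM in surrounding cells (difference -1.82). The calls of stx11a and stx11b.2 were lost with a pseudocount of 5 RPKM, that of stx11a also with no filter and that of stx11b.2 also in the voom fit. The list of 9 leukocyte genes summed to 70.0 and 52.1 RPKM in hair cells and 1080 RPKM in surrounding cells, and the epithelium list to 497 and 567 RPKM in hair cells and 12010 RPKM in surrounding cells; their part in the syntaxin 11 levels was not tested.

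Genes of Sec1/Munc18 proteins, which hold syntaxins and guide SNARE assembly, and of other syntaxin binding proteins were split, with 2 higher and 2 lower among 6 tested of 10 found, and a median difference of -0.17. stxbp1a and stxbp1b, copies of the Munc18 gene of neurons, stayed under 1 RPKM in all samples. stxbp1a was at 0.206 and 0.021 RPKM in hair cells and 0.784 RPKM in surrounding cells. The leading gene was stxbp3, which encodes a widely used Munc18 form, with 23.6 and 27.8 RPKM in hair cells and 10.7 RPKM in surrounding cells. Its difference of 1.18 ± 0.23 (SE; limma adjusted p = 0.0329) lost its call in 3 settings. stxbp2, the Munc18 form of epithelia and blood cells, was at 10.3 and 11.3 RPKM in hair cells and 8.10 RPKM in surrounding cells and was not called.

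The genes of amisyn, a SNARE-like inhibitor of fusion, were lower in hair cells. stxbp6l was at 0.338 and 0.413 RPKM in hair cells and 22.4 RPKM in surrounding cells, a difference of -4.09 ± 0.27 (SE; limma adjusted p = 0.0072). STXBP6 (2 of 2) was at 5.91 and 6.07 RPKM in hair cells and 13.5 RPKM in surrounding cells, a smaller difference of -1.05 whose call was lost in 3 settings. stxbp5l, related to tomosyn, another inhibitor of SNARE assembly, was higher in hair cells at 1.05 and 1.55 RPKM, against 0.084 RPKM in surrounding cells. That difference of 1.08 was near the limit and was lost in 5 settings, the voom fit among them. The tomosyn gene stxbp5a went the other way, with 0.483 and 0.694 RPKM in hair cells and 1.59 RPKM in surrounding cells. Its difference of -0.71 was not called, but in the voom fit it was -1.35 and was called lower in hair cells. stxbp5b stayed under 1 RPKM in all samples and was not tested.

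The machinery that takes SNARE complexes apart comprised 9 genes without nsfl1c, of which 7 were tested, 2 were higher and 0 lower in hair cells (by limma; 3 had an unadjusted p under 0.05), with a median difference of 0.39. nsfa_1, on chromosome 3, encodes NSF. It was at 21.2 and 28.7 RPKM in hair cells and 0.259 RPKM in surrounding cells, a difference of 4.35 ± 0.30 (SE; limma adjusted p = 0.0072). nsfb, the other NSF gene with reads, was at 1.86 and 2.92 RPKM in hair cells and 1.55 RPKM in surrounding cells (difference 0.39, not called). nsfa_1 was therefore 91.9% and 90.8% of NSF RPKM in hair cells and 14.3% in surrounding cells, where nsfb was 85.7%. The row nsfa_2 was listed at 0 in all samples.

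The adaptors that bring NSF to the SNARE complex had smaller differences. napab, a copy of the alpha-SNAP gene, was at 54.8 and 53.6 RPKM in hair cells and 57.2 RPKM in surrounding cells, a difference of -0.08 ± 0.19 (SE, not called). Its partner napaa was at 7.64 and 9.25 RPKM in hair cells and 3.82 RPKM in surrounding cells (difference 0.97, not called, though called higher in the voom fit and with the first technical library alone). NAPB (2 of 2), named for beta-SNAP, the neuronal form in mammals, was higher in hair cells at 2.69 and 2.81 RPKM, against 0.488 RPKM in surrounding cells, by 1.33. That call was lost in 3 settings, the voom fit among them.

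**Figure D3:**
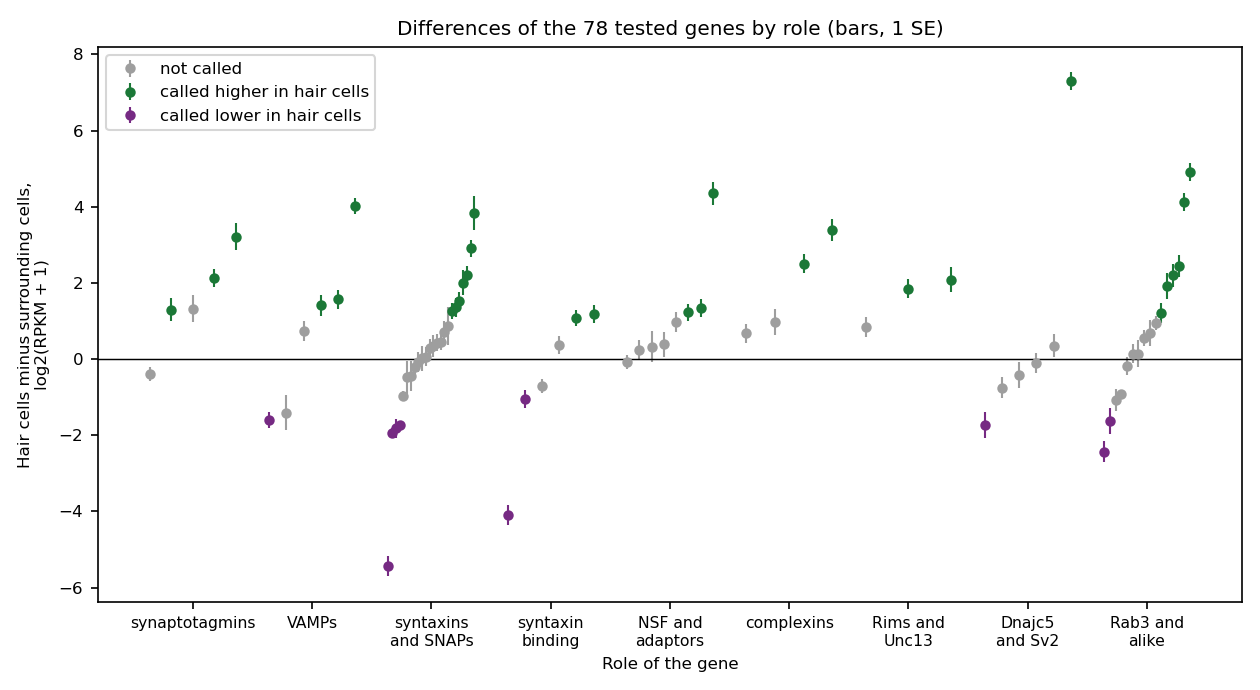
Difference between hair cells and surrounding cells of the 78 tested genes, on the log2(RPKM + 1) scale, by role; points are genes, bars are 1 SE of the limma fit, green is called higher in hair cells, violet is called lower and grey is not called. Synaptotagmins, NSF and its adaptors, complexins and the Rims and Unc13 genes show no call below 0, while the syntaxins run between -5.45 and 2.91 and the Dnajc5 gene dnajc5b stands at 7.30. Genes under 1 RPKM in surrounding cells, such as syt4, syt14b, cplx2, nsfa_1 and rims2a, could not be called lower on this scale. Only 5 of 25 synaptotagmins and 3 of 11 Rims and Unc13 genes were tested.

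Synaptotagmins are vesicle proteins with C2 domains, of which forms 1, 2 and 9 are the fast calcium sensors of neurons. Of 25 genes, 20 stayed under 1 RPKM in all samples, so only 5 were tested, with 3 higher and 0 lower in hair cells (by limma; 4 of the 5 had an unadjusted p under 0.05, none of them with a level lower in hair cells). syt4, on chromosome 7, encodes a synaptotagmin that binds calcium weakly in mammals and is found on secretory granules. It was at 14.1 and 9.29 RPKM in hair cells and 0.338 RPKM in surrounding cells, a difference of 3.22 ± 0.36 (SE; limma adjusted p = 0.0115). The call was lost only with no filter. syt11a, a relative of syt4, was at 7.07 and 9.62 RPKM in hair cells and 2.77 RPKM in surrounding cells (difference 1.30), and that call, with a limma adjusted p = 0.0489, was lost in 5 settings. syt14b, a form that does not need calcium in mammals, was at 3.41 and 3.32 RPKM in hair cells and had no read in surrounding cells. Against a limit of 3 reads in the surrounding cell sample it was at least 99.8-fold higher in hair cells, and the fitted difference of 2.13 lost its call with a pseudocount of 5 RPKM.

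Of the fast sensors of neurons, syt1a was at 1.96 and 3.43 RPKM in hair cells and 0.448 RPKM in surrounding cells. The difference of 1.32 ± 0.36 was not called (SE; limma adjusted p = 0.0636), but in the voom fit it was 2.65 and was called (limma adjusted p = 0.0294). The genes syt1b, syt2a, SYT2 (1 of 2), syt9a and syt9b all stayed under 1 RPKM in every sample. syt3 was at 0.988 and 0.876 RPKM in hair cells and 1.54 RPKM in surrounding cells and was not called.

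Complexins are small proteins that bind the assembled SNARE complex and either clamp or speed fusion, and forms 3 and 4 are those of retinal ribbon synapses. Of 8 genes, 4 were tested and 2 were called, both higher in hair cells. cplx2, on chromosome 14, was at 16.0 and 21.4 RPKM in hair cells and 0.857 RPKM in surrounding cells (difference 3.39 ± 0.30, SE; limma adjusted p = 0.0083). cplx2l, on chromosome 1, was at 16.9 and 20.3 RPKM in hair cells and 2.43 RPKM in surrounding cells, a difference of 2.51. These 2 genes made up most complexin RPKM in hair cells, cplx2 at 43.5% and 45.5% and cplx2l at 45.9% and 43.2%. The retinal type cplx3a was at 1.42 and 2.61 RPKM in hair cells and 0.503 RPKM in surrounding cells and was not called, and cplx3b and all 3 cplx4 genes were under 1 RPKM in all samples.

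The genes that dock and prime vesicles at the active zone were few. Of 11 Rims and Unc13 genes, 3 were tested and 2 were called. rims2b, a copy of the gene of Rim2, a scaffold that binds Rab3 and calcium channels, was at 8.05 and 8.13 RPKM in hair cells and 1.52 RPKM in surrounding cells, a difference of 1.85 ± 0.25 (SE; limma adjusted p = 0.0164). Its partner rims2a was at 4.33 and 2.85 RPKM in hair cells and 0.066 RPKM (4 reads) in surrounding cells. That difference of 2.09 was lost in 3 settings, the voom fit among them. rims1a and rims1b were under 0.4 RPKM in all samples.

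UNC13A, which encodes Munc13-1, a protein that opens syntaxin for SNARE assembly, was at 2.78 and 2.98 RPKM in hair cells and 1.16 RPKM in surrounding cells. Its difference of 0.85 ± 0.26 was not called (SE; limma adjusted p = 0.081), but in the voom fit it was 1.33 and called. The other 4 Unc13 genes stayed under 0.5 RPKM in all samples.

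Rab3 proteins are small GTPases of synaptic vesicles and secretory granules. Of 6 Rab3 genes proper, 2 were tested, and both were higher in hair cells, though rab3ab could not have been called lower. Of the 4 untested genes, rab3da was at 0.234 and 0.284 RPKM in hair cells and 0.630 RPKM in surrounding cells. rab3db was at 0.152 and 0.053 RPKM in hair cells and 0.441 RPKM in surrounding cells. rab3c was at 0.538 and 0.008 RPKM in hair cells and 0.023 RPKM in surrounding cells, and rab3b was listed at 0 throughout. rab3ab, on chromosome 11, was at 53.2 and 45.7 RPKM in hair cells and 0.679 RPKM in surrounding cells, a difference of 4.91 ± 0.23 (SE; limma adjusted p = 0.0072). rab3aa, on chromosome 2, was at 9.41 and 14.1 RPKM in hair cells and 2.30 RPKM in surrounding cells, by 1.93, and lost its call with no filter and with the first technical library alone. rab3ab took 83.7% and 76.0% of Rab3 RPKM in hair cells and 16.7% in surrounding cells.

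Proteins that act on Rab3 or carry its name in theirs were counted apart. rab3ip, named for the Rab3 interacting protein Rabin8, which in mammals activates Rab8, was at 63.9 and 76.2 RPKM in hair cells and 3.05 RPKM in surrounding cells (difference 4.13). rab3il1, its relative, went the other way, with 1.40 and 1.38 RPKM in hair cells and 11.9 RPKM in surrounding cells (difference -2.43). RAB3GAP1 and rab3gap2, the subunits of the Rab3 GTPase activating protein, were at 0.234 to 1.83 RPKM in all samples and were not called. The difference of RAB3GAP1 was 0.95 (limma adjusted p = 0.0281), just under the size a call needed, and it was called higher in hair cells with a pseudocount of 0.5 RPKM and with the second technical library alone. Among the 10 tested genes of rab30 to rab39, which are Rabs of other membranes, 3 were higher and 1 was lower in hair cells. rab36 (5.70 and 4.78 RPKM in hair cells, 0.140 RPKM in surrounding cells), rab39bb (5.64 and 4.37 RPKM in hair cells, 0.297 RPKM in surrounding cells) and RAB35 (2 of 2) (2.49 and 2.98 RPKM in hair cells, 0.618 RPKM in surrounding cells) were higher. rab32a, a Rab of lysosome-related organelles, was lower in hair cells at 1.22 and 2.04 RPKM, against 7.06 RPKM in surrounding cells. All 4 of these calls were lost in at least 2 settings, all of them with a pseudocount of 5 RPKM. RAB31 (difference -0.93) was not called, but was called lower with a pseudocount of 0.5 RPKM, in the voom fit and with the first technical library alone. The uncalled rab34a (-1.07) was called lower with a filter of 5 RPKM, with scaling that left out the most abundant genes, without trend and in the voom fit.

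On the log2(RPKM + 1) scale the largest difference of the tested genes was that of dnajc5b, on chromosome 24, a gene of the cysteine string proteins, vesicle chaperones that fold SNAP-25. It was the most abundant of the 140 genes in hair cells, with 208 and 251 RPKM, and had 0.454 RPKM (13 reads) in surrounding cells. The difference was 7.30 ± 0.23 (SE; limma adjusted p = 0.0072). In the voom fit that of stx11b.1 was larger in size, at -12.10, against 8.93 for dnajc5b. dnajc5b was 91.3% and 90.9% of the RPKM of its 5-gene family in hair cells and 1.65% in surrounding cells.

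The other Dnajc5 genes showed no such gap. dnajc5aa was at 9.11 and 12.6 RPKM in hair cells and 8.17 RPKM in surrounding cells, and dnajc5ga at 6.74 and 7.97 RPKM in hair cells and 7.92 RPKM in surrounding cells, and neither was called. dnajc5gb was lower in hair cells, at 1.80 and 1.00 RPKM, against 6.87 RPKM in surrounding cells (difference -1.73), and lost its call in 3 settings. SNAP91 (1 of 2), taken in by its symbol, encodes AP180, the clathrin assembly protein of nerve endings, and not a t-SNARE. It was at 20.2 and 11.3 RPKM in hair cells and 0.125 RPKM in surrounding cells, a difference of 3.84 that lost its call with no filter. nsfl1c, which encodes the p47 cofactor of the ATPase p97, was higher in hair cells by 1.23 and lost its call with no filter.

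Genes of synapsins, which tether synaptic vesicles to each other, were near 0 in both groups. The 4 genes syn1, syn2a, syn2b and syn3 had at most 0.0864 RPKM in hair cells (syn2a, replicate 1) and 0.362 RPKM in surrounding cells (syn1), and syn3 was listed at 0 throughout. Of 5 genes of the transporter-like vesicle protein SV2, the row sv2 alone was tested, with 2.10 and 2.47 RPKM in hair cells and 4.54 RPKM in surrounding cells (difference -0.76, not called). All 62 untested genes were at or under 0.927 RPKM in every sample, and 4 had no value above 0. Of these 62 genes, 39 had a higher level in surrounding cells than in both hair cell samples, and 12 were higher in both hair cell samples. Of 16 neuron markers found, 14 were under 1 RPKM in both groups, and the list summed to 27.3 and 30.32 RPKM in hair cells, mostly isl2b, and 22.9 RPKM in surrounding cells, mostly ntrk2a. The secretory granule genes chga and scg3 were higher in hair cells: chga was at 89.7 and 50.2 RPKM in hair cells and 0.836 RPKM in surrounding cells, and scg3 at 95.4 and 101 RPKM in hair cells and 27.2 RPKM in surrounding cells. The other 5 genes found of the 7 in this list of neuroendocrine markers were under 1 RPKM in all samples and were not tested. Their part in the levels of vesicle genes was not tested.

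Zebrafish hold many of these genes as a and b copies. Of 27 such pairs, both copies were tested in 9, 1 copy in 7 and neither in 11. Among the 9, both copies were higher in hair cells in 2 pairs (rab3a and rims2), neither was called in 3 (dnajc5a, napa and napg), and the calls differed in 4 (snap25, stx2, rab39b and dnajc5g). The difference between copies was not itself tested.

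The hair cell samples were close to each other for these genes, as they were for most genes tested. None of the 78 tested genes was 1 log2 unit or more apart on the log2(RPKM + 1) scale, where 2.66% of all genes tested were (421 genes). The median distance was 0.212 for the 78 genes and 0.255 over all genes tested. stx5a, a Golgi syntaxin, was the farthest apart at 0.92, with 4.55 RPKM in replicate 1 and 9.51 RPKM in replicate 2.

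At low levels the hair cell samples were farther apart in relative terms. Among 112 genes with at least 20 reads over both hair cell samples, 13 had a replicate 1 to replicate 2 ratio of 2 or more, and 9 had a ratio of 0.5 or less. rab3c had 22 reads in replicate 1 and 1 read in the 3.21 times deeper replicate 2, a ratio of 70.6 with a 95% counting interval of 11.4 to 2913. stxbp1a (ratio 9.63, interval 4.18 to 24.8), syt9b, syt2a and snap25a (ratio 2.71, interval 2.21 to 3.32) were also higher in replicate 1. Of the 13 genes with a ratio of 2 or more, 10 had a higher level in surrounding cells than in either hair cell sample. The same held for 2 of the 9 with a ratio of 0.5 or less and for 41 of the 112. These groups also differed in level, since 10 of the 13, 5 of the 9 and 37 of the 112 were untested genes. Among all 62 untested genes, 39 were higher in surrounding cells than in both hair cell samples. Marker lists of glia (80.1 and 61.1 RPKM in hair cell replicates 1 and 2, 200.4 RPKM in surrounding cells) and red blood cells (286 and 102 RPKM, 383 RPKM in surrounding cells) were higher in replicate 1 than in replicate 2. So were 7 of all 10 marker lists, among them the lists of hair cells (1834 and 1661 RPKM) and of neuroendocrine genes (187 and 153 RPKM). The list of epithelium, the highest in surrounding cells, was higher in replicate 2 (497 and 567 RPKM in replicates 1 and 2), and their part in these ratios was not tested.

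**Figure D4:**
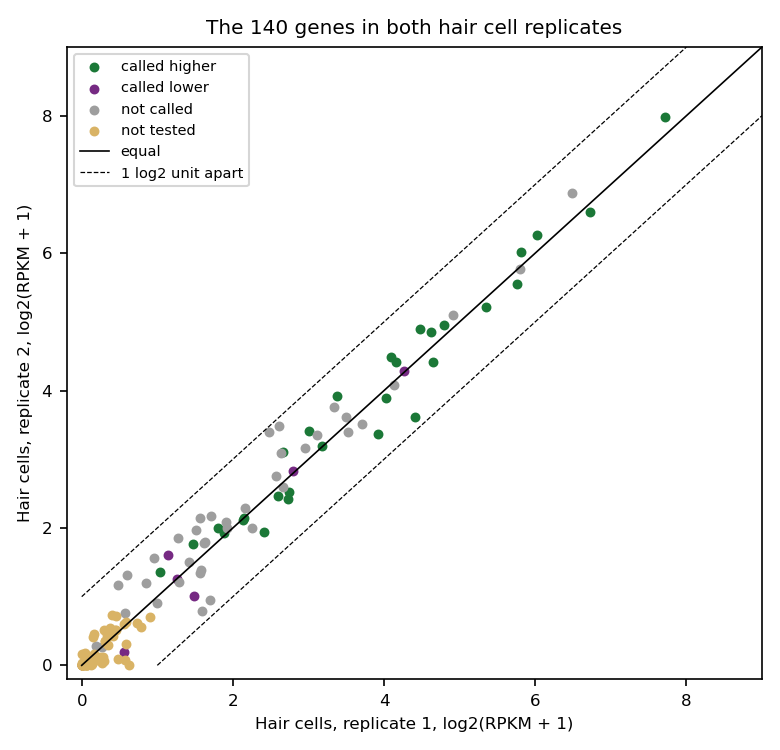
Level of the 140 genes in hair cell replicate 1 (horizontal) and replicate 2 (vertical), both as log2(RPKM + 1); colours give the call against surrounding cells, the full line is equality and the dashed lines are 1 log2 unit away. All 78 tested genes lie between the dashed lines, and the median distance between replicates was 0.212.

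Other genes of the release cycle were read from 6 lists whose members were not in the symbol rule. In these lists too, genes under 1 RPKM in surrounding cells could not be called lower in hair cells. Nor could genes under 1 RPKM in both hair cell samples be called higher. Of 12 tested genes of the ribbon and active zone, 7 were higher (58.3%) and 1 was lower (8.33%) in hair cells. The median difference of the 12 genes was 1.77. All 7 higher genes were under 1 RPKM in surrounding cells, so none of them could have been called lower. otofb, an otoferlin gene, was at 239 and 204 RPKM in hair cells and 0.303 RPKM in surrounding cells, and differed by 7.41. The calcium channel subunit gene cacnb3b (175 and 207 RPKM in hair cells, 0.248 RPKM in surrounding cells) and slc17a8, the vesicular glutamate transporter of hair cells (147 and 157 RPKM in hair cells, 0.180 RPKM in surrounding cells), had gaps of similar size. The gene that was lower in hair cells, cast (difference -3.83), carries the symbol of calpastatin, an inhibitor of proteases, and entered the list by its name. The count of higher genes was 4 with a pseudocount of 5 RPKM and with no filter.

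Vesicle membrane is recovered by clathrin endocytosis after fusion. Of 30 tested endocytosis genes, 15 were higher and 3 were lower in hair cells, with a median difference of 1.21. clta, a clathrin light chain gene, was at 414 and 423 RPKM in hair cells and 10.9 RPKM in surrounding cells (difference 5.14). amph, the gene of amphiphysin, which bends membranes at nerve endings, was at 38.5 and 36.2 RPKM in hair cells and 0.245 RPKM in surrounding cells (difference 4.95), and pacsin1b, the gene of syndapin, was higher by 3.79. The endophilin genes sh3gl1a (-3.37) and sh3gl3b (-2.43) and the dynamin gene dnm3a (-1.09) were lower in hair cells.

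Of 9 tested genes of other synaptic vesicle membrane proteins, 3 were higher in hair cells (scamp1 by 2.13, syngr3a by 1.70 and syngr3b by 1.36) and 1 was lower (syngr2a, -1.86), with a median difference of -0.66. Some genes of neuronal vesicle proteins were under 1 RPKM in both groups. The synaptophysin copy sypa had no read in hair cells and 0.241 RPKM in surrounding cells. The other copy, sypb, was at 0.117 and 0.361 RPKM in hair cells and 0.722 RPKM in surrounding cells. The neuronal glutamate transporter genes slc17a6a, slc17a6b, slc17a7a and slc17a7b were at or under 0.069 RPKM in hair cells and 0.145 RPKM in surrounding cells. The 3 higher calls of this list were all lost with a pseudocount of 5 RPKM and with no filter. Of 14 other genes of vesicle docking and priming, 3 were higher in hair cells (21.4%) and 4 were lower (28.6%), with a median difference of -0.29. The Munc18 binding Mint genes apba1a (3.77) and apba1b (2.01) and the dense-core vesicle priming gene cadpsb (1.28) were higher in hair cells. tprg1 (-2.56) was lower in hair cells, but it was listed by its symbol alone, and no role in docking was shown for it. The Rab27 effector gene sytl4 (-2.05) and rab27a (-1.44) were also among those lower in hair cells. With a pseudocount of 5 RPKM 1 of these genes was higher and 1 was lower.

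The last lists were of traffic in all cells. Of 17 tested genes of other Golgi and endosome SNAREs and their partners, limma called 2 higher in hair cells (11.8%) and 0 lower. Their median difference was 0.68, and 4 of the 17 had an unadjusted limma p under 0.05. The 2 higher genes were vps45 (1.87), a Sec1/Munc18 protein of endosomes, and vti1a (1.19), a SNARE that acts with syntaxins 6 and 16. Of 10 tested genes of the exocyst, which tethers vesicles to the plasma membrane, 0 were called by limma in either direction, 1 had an unadjusted p under 0.05 and 1 was called higher in the voom fit.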

How the data were processed

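RNA of 2000 sorted cells per sample was extracted with a Qiagen miRNeasy kit and amplified with Clontech SMART-Seq per the labels. The authors deposited RPKM values per gene and library, mapped to GRCz10; the sources used here do not name the aligner, counter, annotation or strand handling, and the authors' 4 columns of averages and standard deviations were not used. The 2 technical libraries of each of the 3 biological samples were averaged. Mapped totals were inferred from the steps between the RPKM values of each library. With these totals, the smallest gene model length that gave whole reads in all libraries was then searched for each row. Such a length was found for 26518 of 26520 rows above 0 (99.99%, tolerance 0.001). Read counts may be low by a common factor. Intervals and limits from them cover counting error only, since reads without molecular identifiers are not molecules. One repeated row of clic5a was dropped.

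Alternatives were other pseudocounts, filters and scalings, a fit without trend, voom on the reads, single technical libraries and leaving out either hair cell sample. Genes with at least 1 RPKM in at least 1 biological sample were tested with limma 3.58.1 (R 4.3.3), with trend, on log2(RPKM + 1). Its 1 residual degree of freedom became 3.42 after moderation. Labels do not say whether the hair cell samples came from separate animals, so p-values measure only the spread between these samples. Scripts were tested on simulated data. All members were open to naming: values per sample are given for the called genes with the largest differences in each role, the most abundant gene of each role and group, and a and b copies whose calls differ; lists name at most 3 called genes in each direction. The members and lists were chosen with earlier results of these data known.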

Additional observations from a re-analysis of the deposited data

How the results depend on the processing

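With a pseudocount of 5 RPKM, 16 members were higher and 4 lower in hair cells, and over all genes 1603 were higher and 1225 lower. With no filter on low values, 13 members were higher and 6 lower, and over all genes 1464 were higher and 1740 lower; a filter of 5 RPKM left 1713 genes lower. In the fit as described, 29 members were higher and 10 lower, and 2799 genes were higher and 2851 lower. The median difference of members was 0.02 with no filter, 0.27 with a pseudocount of 5 RPKM, 0.97 with a filter of 5 RPKM and 0.98 in the voom fit, and that of all genes was -0.05 with no filter. By role, the median turned to 0.01 (pseudocount of 5 RPKM) and 0.03 (no filter) for syntaxin binding genes, to -0.20 (no filter) for priming and tethering genes and to 0.13 (filter of 5 RPKM) for synaptic vesicle proteins. The uncalled genes that turned sign were dnajc5ga (0.05) and stx2a (0.03) with the first technical library alone, rab39ba (-0.04) with the second, stx3a (-0.00 with median-ratio scaling, -0.08 with scaling that left out the most abundant genes, -0.05 with the first technical library) and stx8 (-0.03 with that scaling). A larger pseudocount by itself makes log differences between samples smaller in size, and dropping the filter adds genes under 1 RPKM in every sample. Beyond that, why these values moved was not tested. Calls of members lost numbered 20 with no filter, 19 with a pseudocount of 5 RPKM, 8 in the voom fit, 7 and 3 with the first and the second technical library alone and 1 each with median-ratio scaling (syt11a) and without trend (stxbp5l). No paired analysis was possible because hair cells and surrounding cells share only 1 replicate number. The single surrounding cell sample and the 3.21-fold depth of hair cell replicate 2 limit low genes.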
